A study of Mus musculus with 9 samples.

Results

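Macrophages are commonly recognised in tissue by a small set of transcripts, and the genes examined here were Adgre1, which encodes the adhesion receptor bound by the standard macrophage antibody of the mouse, Cd68, a lysosomal glycoprotein, Itgam, the CD11b integrin chain, Aif1, the actin-bundling protein IBA1, and the CSF1 axis: the receptor kinase gene Csf1r and its ligand genes Csf1 and Il34. They were taken by gene symbol from the platform annotation. The list was chosen with earlier results of these data known, so it is not independent evidence. Of the 7 genes, 6 had a row, each of them a single one, among the 19572 transcript clusters that carry 1 gene symbol. Cd68 had no row under its name and was not analysed here.

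The tissue was white fat from male mice, hybridized to 9 Clariom S arrays in 3 groups of 3. The first group was leptin-deficient C57BL/6JHamSlc-ob/ob mice gavaged for 42 days with Vigna umbellata (rice bean) extract, named VE, at 100 mg/kg, the second was C57BL/6JHamSlc-ob/ob mice given vehicle, and the third was lean wild type C57BL/6JHamSlc-+/+ mice given vehicle. All mice were 6 weeks old on arrival and ate standard chow, and the fat depot was not given in the sources used here. ob/ob mice carry a nonsense mutation in Lep, so their obesity comes from a lack of leptin.

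CSF1 and IL-34 are unrelated in sequence but bind the same receptor, CSF1R, a tyrosine kinase that most macrophages need to survive and divide. Signalling runs through adaptors and phosphoinositide 3-kinase, and the receptor gene itself is driven by the myeloid transcription factor PU.1, encoded by Spi1. In obese fat, macrophages gather around dying adipocytes, and adipocytes and stromal cells are known sources of CSF1.

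All values are log2 signals normalized by the submitters, so a difference of 1 is a 2-fold change, and levels are not compared between genes. The adipocyte list (Adipoq, Plin1 and 6 others) had array medians of 15.53 to 16.70, so the labelled tissue carried its defining transcripts. Array medians over all named clusters lay between 6.26 and 6.37. Wild type arrays were less alike, with r between arrays of the group at 0.933 to 0.956. It was 0.98 to 0.987 in ob/ob vehicle and 0.982 to 0.988 in VE mice. The model used here shares 1 estimate of the spread over the 3 groups. Epithelial transcripts were uneven by genotype: the median of 8 epithelial markers was 3.98 to 4.35 on VE arrays, 4.33 to 4.97 on ob/ob vehicle arrays and 9.16 to 10.79 on wild type arrays, and all 8 were lower in both ob/ob groups than in wild type by limma. In ob/ob vehicle mice, ordered by moderated t, Epcam (−6.04, log2) and Krt18 (−4.53) stood at one end of the list. Cldn4 (−3.76) and Esrp1 (−3.44) stood at the other. The largest differences were those of Cdh1 (−7.25) and Pax8 (−7.14). The Cldn4 call was lost in ob/ob vehicle mice without any 1 ob/ob vehicle array or wild type array 2, and in VE mice without any 1 VE array (limma adjusted p = 0.053 to 0.066). The epithelial difference stands beside both comparisons with wild type below, and its part in them was not tested. Between VE and ob/ob vehicle mice the median difference of these markers was −0.17 (log2). There 0 of 8 passed limma, beside 0.0255% of all clusters. The tissue was bulk, so a change in the number of macrophages and a change in RNA per macrophage cannot be told apart. The design text gives 3 mice per group, and this number limits the precision of every value.

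RefSeq promoter windows (GRCm38.p6) were at hand for 4 of the 7 genes, and those of Itgam and Csf1 are shown because these are the members with a window that passed the test between ob/ob vehicle and lean mice. Each run is the 250 bases before the annotated start, read along the gene, with capitals for the core motif of PU.1 (GAGGAA on either strand).

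Itgam, chr7:128062390-128062639, plus strand: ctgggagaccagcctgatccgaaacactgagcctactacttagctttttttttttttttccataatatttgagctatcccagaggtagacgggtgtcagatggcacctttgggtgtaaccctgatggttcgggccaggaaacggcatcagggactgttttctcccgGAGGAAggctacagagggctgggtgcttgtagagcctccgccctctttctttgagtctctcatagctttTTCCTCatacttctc
Csf1, chr3:107760470-107760719, minus strand: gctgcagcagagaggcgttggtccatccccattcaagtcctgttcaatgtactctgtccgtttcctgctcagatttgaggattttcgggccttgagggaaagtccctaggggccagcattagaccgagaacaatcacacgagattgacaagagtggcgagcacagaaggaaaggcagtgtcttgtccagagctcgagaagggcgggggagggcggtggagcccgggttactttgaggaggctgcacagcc

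The motif was found 84 to 79 bases before the start of Itgam on the same strand and 15 to 10 bases before it on the opposite strand. The Csf1 window had no match. Among 32851 promoter windows of this length, 23.3% held the motif on either strand, so a match is common. The AP-1 motif (TGANTCA, in 6.75% of windows) and the E-box bound by the MiT family (CACGTGA or its reverse complement, in 3.13%) had no match in either window. The window of Cd68, which had no array value, held the PU.1 motif 225 to 220 bases and the AP-1 motif 149 to 143 and 24 to 18 bases before the start. The window of Aif1 is not shown because it reaches into the annotated span of the gene.

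The first comparison, of vehicle-treated ob/ob with lean mice, describes the macrophage signal of obese fat. The receptor gene Csf1r, its ligand Csf1 and the surface markers Adgre1 and Itgam were all higher in ob/ob vehicle mice, while Il34 and Aif1 did not pass the test. That is 4 of 6 members higher, by limma at an adjusted p of 0.05, against 9.02% of all 19572 clusters higher and 5.05% lower at that threshold. On each of these 4 genes every ob/ob vehicle array lay above every wild type array, which held for 15.7% of all clusters, with 13.1% lying the other way. By limma's moderated F test over the 3 groups the same 4 genes passed, against 15.7% of clusters.

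Csf1r, the receptor, read 14.35, 13.91 and 13.53 in ob/ob mice with VE, 14.00, 14.61 and 14.05 in ob/ob mice with vehicle, and 9.10, 10.05 and 11.87 in wild type mice. The 6 ob/ob arrays lay close together, and wild type array 3 stood nearer to them than the other wild type arrays did. The mean was 14.22 ± 0.34 in ob/ob vehicle and 10.34 ± 1.41 in wild type mice (SD, n = 3 each). Csf1r was thus higher by 3.88 ± 0.58 (log2, SE; 95% interval 2.59 to 5.17), or 14.7-fold, in ob/ob vehicle mice (limma adjusted p = 0.00179). With wild type array 3 as the lone wild type array the difference was 2.35 (adjusted p = 0.00447 by limma), a fit that assumes this array to vary like the other groups. It was 3.26 without wild type array 1 and 4.65 without wild type array 3.

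Csf1, the macrophage colony-stimulating factor, read 13.44, 12.58 and 13.42 in ob/ob mice with VE, 13.41, 14.13 and 13.88 in ob/ob mice with vehicle, and 10.94, 11.66 and 12.68 in wild type mice. VE array 2 fell just under wild type array 3, so the VE and wild type arrays overlapped, while the ob/ob vehicle arrays lay above all wild type arrays. The mean was 13.81 ± 0.37 in ob/ob vehicle and 11.76 ± 0.87 in wild type mice (SD, n = 3 each). Csf1 was higher by 2.05 ± 0.43 (SE), or 4.13-fold, in ob/ob vehicle mice (limma adjusted p = 0.0111; interval 1.08 to 3.01). This call was lost without ob/ob vehicle array 2, where it was 1.89 with a limma adjusted p of 0.0531, and without empirical Bayes moderation (adjusted p = 0.0642). Against wild type array 3 alone the difference was 1.13 (adjusted p = 0.133 by limma).

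Il34, the second ligand of the receptor and the one on which microglia and Langerhans cells depend, read 6.93, 7.49 and 7.13 in ob/ob mice with VE, 7.39, 7.14 and 6.35 in ob/ob mice with vehicle, and 6.05, 6.58 and 8.07 in wild type mice. Its highest and its lowest value both fell on wild type arrays. The difference between ob/ob vehicle and wild type mice was 0.06 ± 0.48 (log2, SE; limma adjusted p = 0.953), and its 95% interval of −1.01 to 1.13 includes a change of 1 in either direction. The signal was close to the array medians, and detection calls were not used here.

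The ligand genes were also compared within each array, as the log2 value of Csf1 minus that of Il34. It was 6.02, 6.99 and 7.53 on the ob/ob vehicle arrays, against 4.89, 5.08 and 4.61 on the wild type arrays, without overlap. On the VE arrays it was 6.51, 5.09 and 6.29, so VE array 2 lay next to the highest wild type value. The mean was 6.85 ± 0.77 in ob/ob vehicle and 4.86 ± 0.24 in wild type mice (SD, n = 3 each), a difference of 1.99. An exact permutation test, two-sided, gave p = 0.1, which is the smallest value that 3 arrays against 3 can give, so it cannot pass 0.05. This difference depends on the response of each probe, so only its change between groups can be read.

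Adgre1, the adhesion receptor gene used as the classical macrophage marker of the mouse, read 12.43, 12.34 and 11.23 in ob/ob mice with VE, 12.56, 13.14 and 12.14 in ob/ob mice with vehicle, and 8.35, 7.32 and 8.29 in wild type mice. The gap between both ob/ob groups and wild type exceeded the spread within any group. Adgre1 was higher by 4.63 ± 0.42 (log2, SE), or 24.7-fold, in ob/ob vehicle mice (12.61 ± 0.50) than in wild type mice (7.99 ± 0.58; SD, n = 3 each; limma adjusted p = 9.02e-05). It was the only member on which wild type array 3 was not the highest of the wild type arrays, and against that array alone its difference was still 4.32 (adjusted p = 0.000739 by limma).

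Itgam, whose product pairs with the beta 2 integrin chain to form the complement receptor CR3, read 12.62, 12.09 and 12.08 in ob/ob mice with VE, 12.17, 13.29 and 12.74 in ob/ob mice with vehicle, and 7.34, 7.65 and 8.95 in wild type mice. No ob/ob array came near the wild type range. Itgam was higher by 4.75 ± 0.43 (log2, SE), or 27.0-fold, in ob/ob vehicle mice (12.73 ± 0.56) than in wild type mice (7.98 ± 0.85; SD, n = 3 each; limma adjusted p = 9.49e-05). Against wild type array 3 alone the difference was 3.78 (adjusted p = 0.00056 by limma).

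Aif1 encodes IBA1, a calcium-binding protein used to stain macrophages and microglia, and its readings stood apart from those of the other surface and cytoplasmic markers. They were 7.63, 7.75 and 6.90 in ob/ob mice with VE, 8.04, 6.93 and 6.78 in ob/ob mice with vehicle, and 6.80, 7.22 and 7.93 in wild type mice. The groups overlapped fully. The difference between ob/ob vehicle mice (7.25 ± 0.69) and wild type mice (7.32 ± 0.57; SD, n = 3 each) was −0.07 ± 0.41 (SE; limma adjusted p = 0.938). Its 95% interval, −0.99 to 0.85, lies wholly below the interval of Adgre1 (3.70 to 5.55) and that of Itgam (3.79 to 5.72). A rise of the Aif1 signal by more than 1.80-fold thus falls outside its interval. That signal was close to the array medians, at percentiles 54.8 to 66 of the ob/ob vehicle arrays, and detection calls were not used here. Whether this row responds to a change in Aif1 RNA was not tested.

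**Figure D1:**
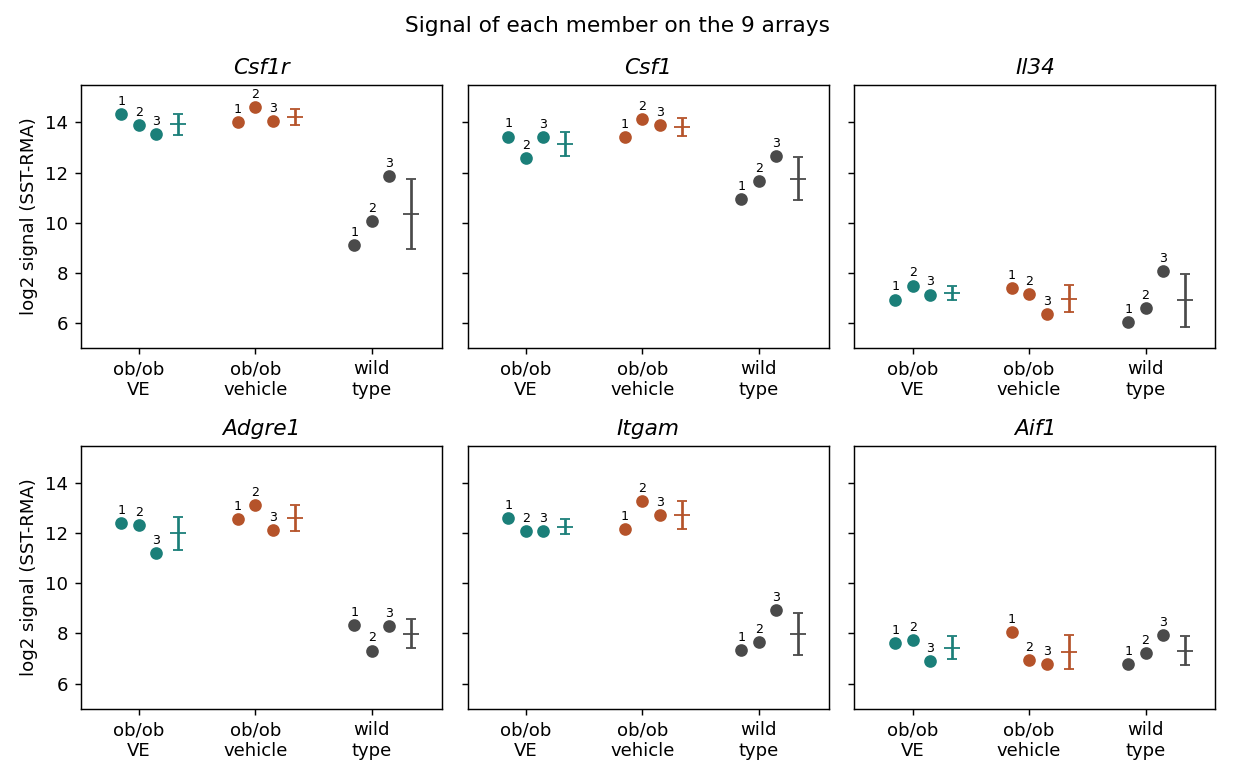
Log2 signal (vertical axis) of the 6 measured members on each array, with replicate numbers over the points and the mean and SD of each group of 3 beside them. Csf1r, Csf1, Adgre1 and Itgam are higher on the ob/ob vehicle arrays than on every wild type array, whereas Il34 and Aif1 lie between 6.05 and 8.07 in all groups.

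Whether VE altered these transcripts was asked by comparing both ob/ob groups. None of the 6 members passed limma at an adjusted p of 0.05, where 0.0255% of all clusters passed. In the main model an unadjusted p under 0.05 was reached by 0 of 6, and by 4.56% of all clusters. None passed without empirical Bayes either. On all 6 genes the VE and ob/ob vehicle arrays overlapped, whereas 5.77% of all clusters had every VE array higher and 6.79% every VE array lower.

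Csf1 differed by −0.66 ± 0.43 (log2, SE, n = 3; limma unadjusted p = 0.158), with means of 13.15 ± 0.49 in VE and 13.81 ± 0.37 in ob/ob vehicle mice (SD). Adgre1 differed by −0.61 ± 0.42 (limma unadjusted p = 0.171), with means of 12.00 ± 0.67 in VE and 12.61 ± 0.50 in ob/ob vehicle mice. These are the members with the lowest unadjusted p here, and the arrays of the groups overlapped on each. Fitted on these 2 groups only, Csf1 had a limma unadjusted p of 0.0544 (adjusted p = 0.719). With array weights Csf1 differed by −0.83 (limma unadjusted p = 0.0302, adjusted p = 0.508). Itgam differed by −0.47 and Csf1r by −0.29, while Il34 differed by 0.22 and Aif1 by 0.18. The 95% interval of VE over ob/ob vehicle was 0.325-fold to 1.23-fold for Csf1, 0.344-fold to 1.24-fold for Adgre1, 0.370-fold to 1.41-fold for Itgam and 0.334-fold to 2.00-fold for Csf1r. All 4 intervals hold a fold of 1 as well as folds under 0.5, so a p that misses the threshold does not show that VE left these genes alike.

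VE-treated mice also differed from wild type mice, a comparison that shares its wild type arrays with the first and its VE arrays with the second. Here 4 of 6 members were higher, against 12.4% of all clusters higher and 7.58% lower. Adgre1 was higher by 4.01 ± 0.42 (log2, SE, n = 3; limma adjusted p = 0.000189), Itgam by 4.28 ± 0.43 (adjusted p = 0.000169) and Csf1r by 3.59 ± 0.58 (adjusted p = 0.00237). Csf1r differed by 2.97 without wild type array 1 and 4.36 without wild type array 3, and against wild type array 3 alone Csf1r differed by 2.06 and Itgam by 3.31, all with calls kept. On these 3 genes all VE arrays lay above all wild type arrays, as for 19.5% of clusters, and for 17.7% they lay below.

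Csf1 passed only narrowly in VE mice, at 1.39 ± 0.43 (log2, SE, n = 3; limma adjusted p = 0.0477), and its arrays overlapped with wild type. The call was lost on leaving out any single array other than wild type array 3 (limma adjusted p = 0.0515 to 0.146). It was also lost after quantile normalization (0.92, adjusted p = 0.15 by limma), in a fit of the VE and wild type arrays only (adjusted p = 0.091), without empirical Bayes moderation (adjusted p = 0.126) and against wild type array 3 alone (0.47, adjusted p = 0.539). Il34 (0.28 ± 0.48) and Aif1 (0.11 ± 0.41) did not pass.

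**Figure D2:**
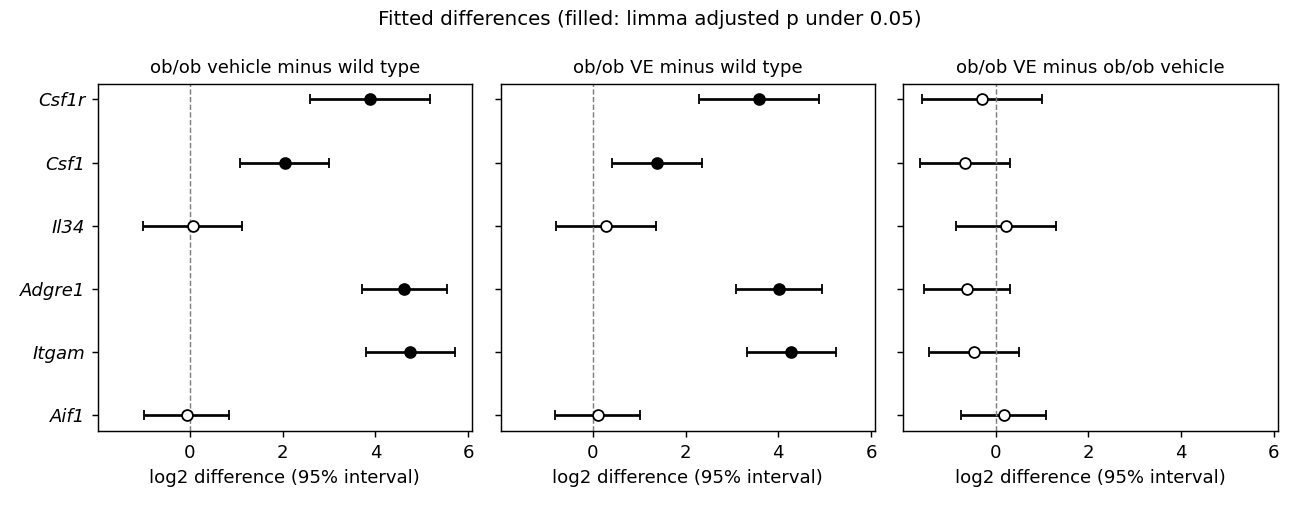
Fitted log2 difference (horizontal axis, with its 95% interval) of each member in the 3 comparisons, with filled points for a limma adjusted p under 0.05. Csf1r, Csf1, Adgre1 and Itgam are filled in both comparisons with wild type and no member is filled in VE minus ob/ob vehicle.

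Deviations of the members from their group means showed how they varied together within groups. Over the 9 arrays Itgam and Csf1r deviated together (Pearson's r = 0.92), as did Itgam and Csf1 (r = 0.88) and Csf1r and Csf1 (r = 0.83). Il34, which did not differ between groups by limma, deviated with Csf1r (r = 0.80) and with Aif1 (r = 0.75). The r of Aif1 was 0.55 to Csf1r, 0.21 to Itgam and 0.13 to Csf1. Adgre1 did not share this pattern, with r = 0.32 to Csf1r and −0.03 to Csf1. The points of each pair share the array, its normalization and, for the large deviations, the wild type arrays. On wild type array 3 Csf1r stood 1.53, Il34 1.17, Itgam 0.97 and Csf1 0.92 above the wild type mean, and on wild type array 1 Csf1r stood 1.24 below it. These correlations are a description without a test.

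**Figure D3:**
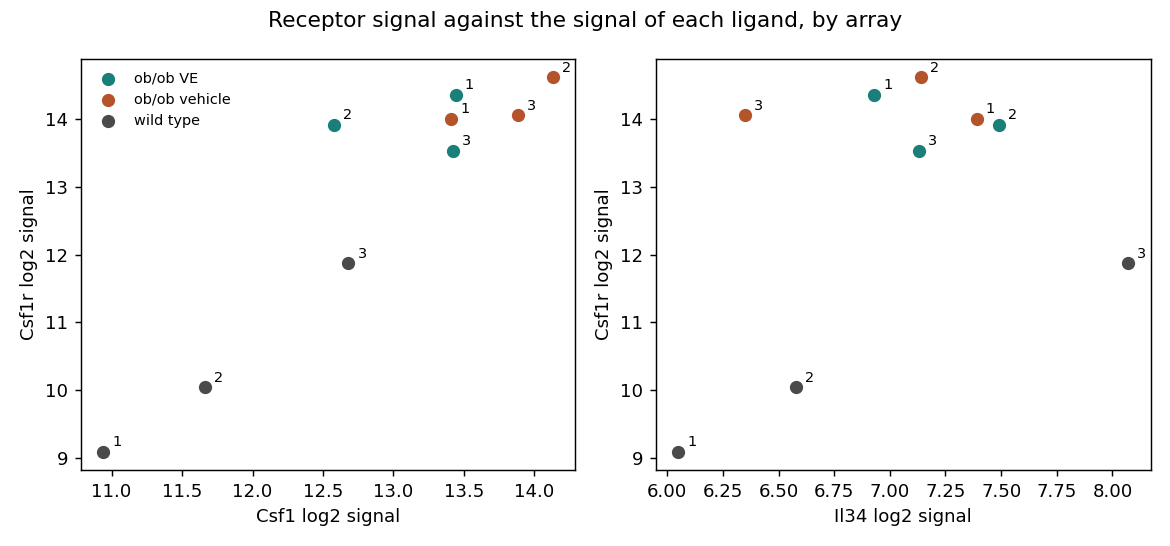
Log2 signal of Csf1r (vertical axis) against that of Csf1 (left) and of Il34 (right), with 1 point per array, numbered by replicate and coloured by group. The 3 wild type arrays lie lowest for Csf1r, at 9.10 to 11.87, while for Il34 they hold both the lowest and the highest value, 6.05 and 8.07.

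The genes whose pattern over the 9 arrays was most like that of each member were sought among 18543 other named genes. Itgam was followed by Nrros, Ncf1 and Dock2 (Pearson's r = 0.996 each), of which Ncf1 encodes a subunit of the phagocyte NADPH oxidase and Dock2 a Rac activator of leukocytes. Adgre1 was followed by Pea15a (r = 0.994), the inhibitory receptor gene Cd200r1 (0.990) and the kinase gene Syk (0.990). Csf1r was followed by Trp53inp2 (r = 0.996), Dse (0.995) and Arhgef6 (0.994), and Csf1 by Rbpj (0.976), the nuclear effector of Notch, Zfp219 (0.974) and Mtss1 (0.972). For Il34 they were Slc27a1 (r = 0.929), Med13l (0.925) and Cep164 (0.924), none of which passed in ob/ob vehicle against wild type. With the group means taken out, the deviations of these 15 genes correlated with those of their member at r = 0.868 to 0.97. The genes were picked for a high r over the same 9 arrays, so this is no separate check. The points share the array and its normalization, and no test was made.

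Further transcripts of macrophages were examined to set the members in context. Of 20 other pan-macrophage genes, 17 were higher in ob/ob vehicle mice than in lean ones, 0 were lower and 3 did not pass (limma, adjusted p under 0.05). Over all clusters 9.02% were higher and 5.05% lower, shares that apply to every list count for this comparison below. The median log2 difference of the 20 genes was 4.69, beside −0.04 over all clusters. The 2 with the largest t were Cd84, a self-binding receptor of the SLAM family, at 6.20 ± 0.30 (SE, n = 3; limma adjusted p = 4.46e-06), and the scavenger receptor Msr1 at 4.71 ± 0.25 (adjusted p = 7.14e-06). The 2 with the lowest t were Lst1 (0.34 ± 0.40) and Mertk (0.68 ± 0.58), a receptor gene for the uptake of dead cells. Of the same list 14 were higher against wild type array 3 alone. In VE against ob/ob vehicle mice 0 of 20 passed, 1 had an unadjusted p under 0.05 (Fcer1g, a difference of 1.36), as did 4.56% of all clusters, and the median was −0.05 beside −0.02 over all clusters.

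Integrin genes related to Itgam did not move as a block. Itgb2, the beta 2 chain that pairs with CD11b, read 13.04, 13.05 and 13.98 in ob/ob mice with VE, 12.77, 13.75 and 13.06 in ob/ob mice with vehicle, and 5.33, 6.03 and 7.81 in wild type mice. It was higher by 6.80 ± 0.57 (log2, SE, n = 3; limma adjusted p = 6.04e-05) in ob/ob vehicle mice than in lean ones. Itgax, the CD11c chain, was higher by 4.93 ± 0.39 (adjusted p = 4.37e-05 by limma). The lymphocyte chain Itgal (0.46 ± 0.30) and the beta 1 chain Itgb1 (0.63 ± 0.34) did not pass, and Itgb1 passed without wild type array 2, at a limma adjusted p of 0.0377. In all, 3 of 6 integrin genes were higher and 0 were lower, and against wild type array 3 alone 2 were higher.

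Among 14 measured transcription factors of macrophages, 6 were higher in ob/ob vehicle mice than in lean ones, 0 were lower and 8 did not pass, with a median of 0.78. Spi1, which encodes PU.1, read 17.77, 17.64 and 17.41 in ob/ob mice with VE, 18.61, 18.91 and 17.72 in ob/ob mice with vehicle, and 11.79, 11.60 and 13.30 in wild type mice. Every ob/ob array was far above the wild type range. Spi1 was higher by 6.18 ± 0.45 (log2, SE, n = 3; limma adjusted p = 3.01e-05) and Tfec, a MiT family factor of macrophages, by 2.93 ± 0.27 (adjusted p = 9.5e-05). Cebpa (0.27 ± 0.48), which adipocytes also express, and Batf3 (−0.22 ± 0.26), a factor of dendritic cells, did not pass. Without ob/ob vehicle array 1 the count of higher factors was 4.

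Genes listed under signalling of the receptor were higher in part. Of 26 measured genes of CSF1 receptor signalling, 15 were higher in ob/ob vehicle mice than in lean ones, 0 were lower and 11 did not pass, with a median of 1.35. Chains of phosphoinositide 3-kinase gamma led by t. The catalytic chain gene Pik3cg was higher by 3.68 ± 0.26 (log2, SE, n = 3, limma adjusted p = 2.5e-05). The regulatory chain gene Pik3r5 was higher by 5.30 ± 0.43 (adjusted p = 4.82e-05). Whether this receptor acts through the gamma form was not tested. The delta catalytic chain gene Pik3cd was higher by 1.68 (limma adjusted p = 0.00444). The kinase gene Src (−0.53 ± 0.42) and the cytokine signalling inhibitor Socs1 (−0.12 ± 0.21) did not pass. Against wild type array 3 alone 11 were higher. In VE against ob/ob vehicle mice 0 of 26 passed, 1 had an unadjusted p under 0.05 (Vav1, a difference of 0.71), beside the same 4.56% of all clusters, and the median was −0.22.

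IL-34 has been reported to bind syndecan-1 and the phosphatase PTPRZ1 besides CSF1R. Sdc1, the syndecan gene, read 11.80, 11.89 and 12.25 in ob/ob mice with VE, 11.11, 11.61 and 11.84 in ob/ob mice with vehicle, and 9.41, 9.39 and 8.37 in wild type mice. It was higher by 2.46 ± 0.33 (log2, SE, n = 3; limma adjusted p = 0.000927) in ob/ob vehicle mice than in lean ones. Ptprz1 lay between 3.60 and 4.96 on the 6 ob/ob arrays, whereas wild type arrays 1 and 2 had 12.32 and 12.11 and wild type array 3 had 4.12. Its difference of −5.05 ± 1.73 did not pass (adjusted p = 0.0842 by limma), and it passed without wild type array 3, at a limma adjusted p of 1.06e-06.

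Of 15 measured genes for other growth factors of the myeloid lineage and their receptors, 5 were higher in ob/ob vehicle mice than in lean ones, 0 were lower and 10 did not pass, with a median of −0.04, the value over all clusters. The 5 were receptor genes: Csf2ra, the alpha chain of the GM-CSF receptor, was higher by 3.82 ± 0.54 (log2, SE, n = 3; limma adjusted p = 0.00125) and Tnfrsf11a, the RANK gene, by 1.50 ± 0.31 (adjusted p = 0.0097), and Csf2rb, Csf3r and Il3ra were higher by 1.06 to 1.33. The ligand genes Csf2, Csf3, Il3, Il5, Tnfsf11, Flt3l and Kitl did not pass, with differences of −0.62 (Flt3l) to 0.53, nor did Kit (−0.87 ± 0.44). Without ob/ob vehicle array 2 only 2 of the 15 were higher, and against wild type array 3 alone 2 were higher and 1, Kit, was lower. In VE against wild type mice 3 were higher and 1 was lower, the stem cell factor receptor Kit, at −1.49 ± 0.44 (adjusted p = 0.0369 by limma), a call that was lost without any 1 of 7 of the 9 arrays.

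A set of relatives of the members and of actin genes of leukocytes behaved unevenly. Lcp1, an actin-bundling protein of leukocytes, was higher by 5.03 ± 0.40 (log2, SE, n = 3; limma adjusted p = 4.41e-05) in ob/ob vehicle mice than in lean ones, and Coro1a, another actin regulator of leukocytes, by 2.94 ± 0.31 (adjusted p = 0.000223). Aif1l, the paralog of Aif1, did not pass (−0.28 ± 0.32), nor did Lamp3 (−0.27 ± 0.42), a relative of Cd68. Adgre4, a relative of Adgre1, was higher by 1.88 (limma adjusted p = 0.0154). That call was lost without ob/ob vehicle array 2 or 3 (adjusted p = 0.0523 to 0.0652). Lamp1, a relative of Cd68, was higher by 1.23 (limma adjusted p = 0.00593). In this set of 7 measured genes 4 were higher and 0 were lower.

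CD11b is also carried by neutrophils and monocytes, so markers of these cells were examined beside Itgam. Of 11 neutrophil genes, 1 was higher in ob/ob vehicle mice than in lean ones and 0 were lower. Over all clusters 9.02% were higher and 5.05% lower, so the higher count is near that share. The median difference of the neutrophil list was 0.11. The array median of this list was 4.84 to 4.99 on VE arrays, 5.26 to 5.41 on ob/ob vehicle arrays and 5.16 to 5.43 on wild type arrays, all under the array medians. Csf3r was the higher gene (1.33 ± 0.33, SE, n = 3; limma adjusted p = 0.025), a call lost without ob/ob vehicle array 2 or 3 or wild type array 2 (adjusted p = 0.0678 to 0.0958). S100a8 (2.11 ± 0.76), Ltf (−1.06 ± 0.42) and Ngp (−0.26 ± 0.23) did not pass. Ltf passed, lower, without wild type array 3, at a limma adjusted p of 0.00405, and S100a8 passed, higher, without VE array 1 or 3 (adjusted p = 0.0287 to 0.044).

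Of 7 monocyte genes, 1 was higher, 1 was lower and 5 did not pass, beside 9.02% of all clusters higher and 5.05% lower. The median of the monocyte list was 0.48. The higher one was Chil3 at 2.13 ± 0.48 (log2, SE, n = 3; limma adjusted p = 0.0158; lost without ob/ob vehicle array 3, adjusted p = 0.0618). The lower one was Plac8, with a mean of 7.11 ± 0.53 in ob/ob vehicle mice (SD, n = 3), whereas wild type arrays 1 and 2 had 17.02 and 15.89 and wild type array 3 had 8.42. Its call (adjusted p = 0.0294 by limma) was lost without any ob/ob vehicle array, wild type array 1 or 2, or VE array 2. The chemokine receptor gene Ccr2 (1.95 ± 0.63; limma adjusted p = 0.0686) and Ace (−0.61 ± 0.67) did not pass. Without wild type array 3 Ccr2 passed, higher (adjusted p = 0.011 by limma), and against that array alone Ccr2 differed by 0.74 and Ace by −2.41, which passed (adjusted p = 0.0103 by limma). Of 8 dendritic cell genes, 0 passed limma in this comparison, 0 had an unadjusted p under 0.05, and the median was 0.11. Xcr1 (0.60 ± 0.29) and Siglech (0.40 ± 0.26) stood at the upper end and Cd209a (−0.64 ± 0.34) and Batf3 at the lower. Xcr1 passed, higher, when wild type array 3 was left out (limma adjusted p = 0.03).

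**Figure D4:**
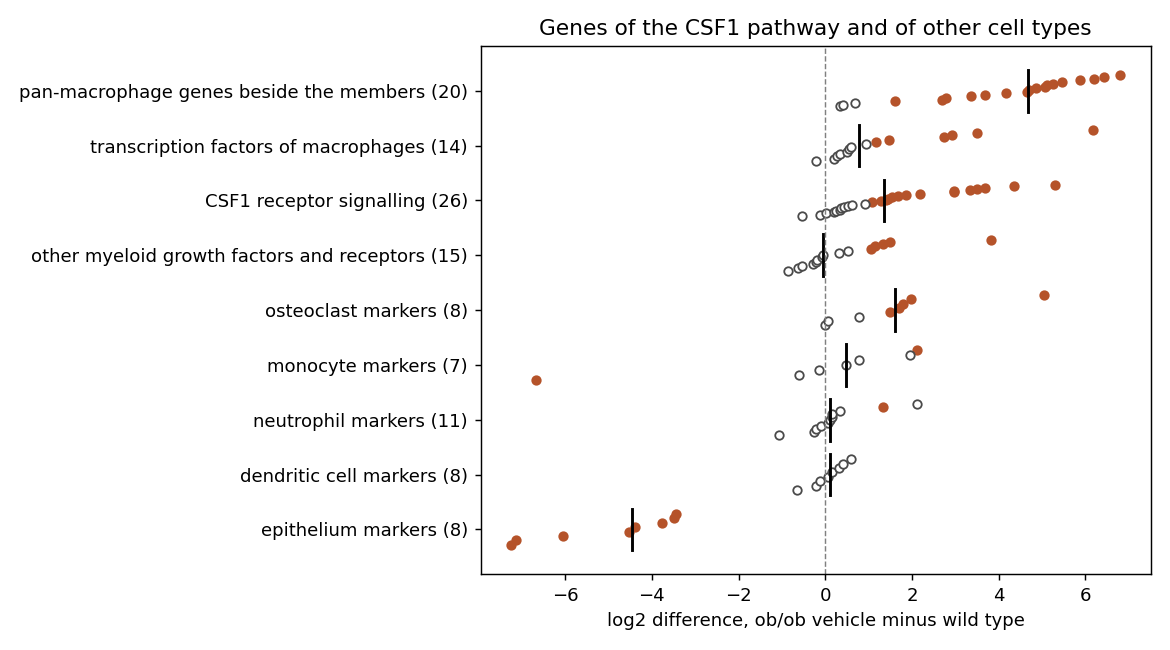
Log2 difference of ob/ob vehicle minus wild type (horizontal axis) for the genes of 9 lists, with the number measured in brackets, filled points for a limma adjusted p under 0.05 and a bar at each list's median. The pan-macrophage list has its median at 4.69, against 0.11 for the neutrophil and dendritic cell lists and −4.46 for the epithelium list.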

How the data were processed

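RNA of white adipose tissue was hybridized for 16 h to Clariom S mouse arrays, and the deposited values are log2 signals per transcript cluster, normalized by the authors with SST-RMA in Transcriptome Analysis Console 4.0.2 per the design text (version 4 per the submitters' processing notes). The genome build is not given in the sources used here. Cluster names came from the platform annotation: of 22206 clusters, 19572 had 1 symbol and 2634 had none or several. Groups were taken from the labels. One limma model (limma 3.58.1, R 4.3.3) with 3 group means was fitted over the 19572 clusters and moderated by empirical Bayes (4.02 prior degrees of freedom), with Benjamini-Hochberg adjustment over all clusters. Confidence intervals are at 95%. The model was tested on simulated data. Alternatives were the normalization, the prior, array weights, a filter on the dimmest 30%, the submitters' threshold (unadjusted p under 0.05 and fold over 1.1) and leaving out arrays.

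The members and the 20 gene lists (182 genes, 167 measured), and the choice to leave out wild type arrays 1 and 2, were made with earlier results of these data known, so no list is independent evidence. Named were all members, in each list described gene by gene the 2 genes at either end of the moderated t for ob/ob vehicle against wild type mice, and for each member the 3 genes most correlated over the 9 arrays. Fcer1g, Vav1, Kit in VE mice, Csf2rb, Il3ra, the ligand genes that did not pass, Acp5 and Dcstamp were named after their values were seen. So were Pik3cd, Adgre4, Lamp1, Cdh1 and Pax8. Gene roles are background.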

Additional observations from a re-analysis of the deposited data

How the results depend on the processing

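The number of members called stayed at 3 to 4 in ob/ob vehicle against wild type, 0 in VE against ob/ob vehicle, 3 to 4 in VE against wild type and 3 to 4 by the F test, over all alternatives and over leaving out each array. Adgre1, Itgam and Csf1r kept direction and call against wild type in all 21 alternatives; the Csf1 call was lost in 3 of 21 for ob/ob vehicle and in 12 of 21 for VE, as given above. Il34 and Aif1 passed in none, and their signs turned. Without 1 array the log2 difference ranged from −0.365 to 0.645 for Il34 and −0.462 to 0.24 for Aif1 in ob/ob vehicle against wild type, from −0.082 to 0.438 and −0.058 to 0.572 in VE against ob/ob vehicle, and from −0.142 to 0.868 and −0.148 to 0.417 in VE against wild type. Against wild type array 3 alone Il34 differed by −1.11 in ob/ob vehicle and −0.887 in VE mice, and Aif1 by −0.503 in VE mice. Aif1 differed by −0.02 in VE against wild type after quantile normalization and by 0.003 in ob/ob vehicle against wild type after median centring. The cause was not tested. The difference of Csf1 minus Il34 ranged from 1.645 to 2.40 without 1 array and was 1.61 after quantile normalization. With the replicate block 4, 0 and 4 members were called in the 3 comparisons and 4 by the F test. The block thus changed no call. Deviations of same-numbered arrays correlated at −0.063 to 0.178, and 5 of 9 arrays were closest to one of their own number. No pairing is stated for the samples, and a pairing or shared batch was not tested. The row of lowest mean was not run because no member has several rows. Signal over background was not used here, so dim genes such as Il34 and Aif1 carry no detection call.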

Other observations

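Osteoclasts are another lineage that depends on the CSF1 receptor, and of 8 osteoclast genes 5 were higher and 0 were lower in ob/ob vehicle mice than in lean ones (limma, Benjamini-Hochberg adjusted p under 0.05), with a median log2 difference of 1.61. The cathepsin gene Ctsk was higher by 5.04 ± 0.30 (SE, n = 3; limma adjusted p = 1.4e-05) and the transcription factor gene Nfatc1 by 1.80 ± 0.32 (limma adjusted p = 0.0044). The calcitonin receptor gene Calcr (−0.01 ± 0.21) and the receptor gene Oscar (0.07 ± 0.25) did not pass. Acp5 and Dcstamp both lost their calls without ob/ob vehicle array 3 or wild type array 2, which left 3 higher genes. Acp5 also lost its call without ob/ob vehicle array 1 or wild type array 1, and Dcstamp without ob/ob vehicle array 2. Against wild type array 3 alone Ctsk differed by 4.44, Tnfrsf11a by 1.77, Dcstamp by 1.36, Nfatc1 by 1.23 and Acp5 by 0.66. In VE against ob/ob vehicle mice 0 of 8 passed limma and 0 had an unadjusted p under 0.05.

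The gene most like Aif1 over the 9 arrays was Gpank1 (Pearson's r = 0.965, and 0.969 for deviations from the group means), which lies 46.2 kb from it on chromosome 17 in the RefSeq annotation of GRCm38.p6. Znhit1 (r = 0.953) and Tsen54 (r = 0.944), on other chromosomes, followed. None of the 3 passed in ob/ob vehicle against wild type mice.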
